A study of Mus musculus with 435 samples.

Results

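The heat shock proteins and their DnaJ cochaperones were described in the livers of 435 diabetic F2 mice. Members were all genes whose annotated symbol begins with Hsp and a letter from a to h or a digit, or with Dnaja, Dnajb or Dnajc and a digit. Hspa5, Hsp90b1 and Dnajb9, which belong to the endoplasmic reticulum stress response, and the proteoglycan Hspg2 were left out. Only probe sets with 1 gene symbol were used, and a gene with several was read from the probe set of highest mean. The rule found 57 of the 13379 genes. They comprised 3 DnaJ proteins of class A, 10 of class B and 23 of class C, 11 proteins of the HSP70 and HSP110 families, 2 proteins that bind HSP70 or HSPB1, both subunits of the mitochondrial chaperonin and 6 small heat shock proteins. Hsp90aa1, Hsp90ab1, Hspa1b and Hspb1 were not analysed here.

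All mice were homozygous for the db allele of the leptin receptor, so no animal with a working receptor served as a control. The db allele came from C57BL/6 males, which were crossed to DBA/2J females, and the F1 carriers were interbred, so every F2 mouse carries its own mixture of the parental genomes. The mice ate chow and were killed at 5 or 12 weeks of age. Livers of 118 females and 101 males were profiled at 5 weeks of age. At 12 weeks the animals numbered 110 (females) and 106 (males), and each mouse had 1 array. Plasma glucose, insulin and triglycerides and the liver fat fraction by NMR were recorded for the same animals. Median plasma glucose was 224 mg/dl in females and 240 mg/dl in males at 5 weeks, against 460.5 and 599.5 mg/dl at 12 weeks.

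Heat shock proteins bind unfolded or partly folded proteins and keep them from aggregating. HSP70 proteins work through cycles of ATP hydrolysis, in which DnaJ proteins deliver clients and trigger hydrolysis while HSP110 proteins and other exchange factors release the nucleotide. Small heat shock proteins hold clients without ATP, and the HSP60 and HSP10 chaperonin folds proteins inside mitochondria. Many of these genes are induced by heat shock factor 1, which binds repeats of the unit nGAAn placed head to head in promoters.

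Such repeats are shown first, because they occur at Hsph1 and at Hspd1 and Hspe1, which recur in the results below. A link between the repeats and those results was not tested. Promoter sequence was taken from RefSeq on build GRCm38.p6, and the 250 bases before each annotated start were searched on both strands. A run of 2 units, written GAANNTTC or TTCNNGAA, was found in 4218 of 32851 promoter windows, or 12.8%. Members with a promoter in the table numbered 46, and 11 of them held it, in 13 of their 62 windows, or 21.0%. Windows of the same gene can overlap and hold the same run, as at Dnajb6 and Hsph1. Hspd1 and Hspe1 share a run too, so the window share counts some runs more than once. A run of 3 units, written GAANNTTCNNGAA or TTCNNGAANNTTC, contains the 2-unit run and was found in 153 windows, or 0.466%. The members that held it were Hspd1, Hspe1 and Dnajb6. A match is a run of letters and was not tested for binding.

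The capitals mark the matched letters in the following sequences, each written from 5′ to 3′ on the strand of its gene. Hspe1 and Hspd1, the 2 chaperonin subunits, lie head to head and share the same run in opposite orientation (chr1:55088053-55088082, plus strand for Hspe1 and minus strand for Hspd1).
Hspe1: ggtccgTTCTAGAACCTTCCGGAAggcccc
Hspd1: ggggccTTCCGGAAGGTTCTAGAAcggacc
Dnajb6, an inhibitor of protein aggregation, has a 3-unit run (chr5:29735828-29735887, plus strand), and Hsph1, the HSP110 exchange factor, has a 2-unit run (chr5:149636337-149636396, minus strand).
Dnajb6: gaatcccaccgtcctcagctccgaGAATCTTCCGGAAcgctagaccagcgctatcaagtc
Hsph1: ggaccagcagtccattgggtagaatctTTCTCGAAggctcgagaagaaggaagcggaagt
The stress-inducible HSP70 gene Hspa1a (chr17:34972227-34972286, minus strand) and the class A cochaperone gene Dnaja1 (chr4:40722318-40722377, plus strand) each have a 2-unit run.
Hspa1a: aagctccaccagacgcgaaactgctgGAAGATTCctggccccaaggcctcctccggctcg
Dnaja1: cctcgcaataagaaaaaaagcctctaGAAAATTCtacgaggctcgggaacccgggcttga
The 2-unit run was also found in windows of Dnaja4, Dnajb4, Dnajc27, Hspb3 and Hspb6. No window of Dnajb1, Dnajb2, Dnajb11, Dnajb14, Hspa4l or Hspb8 held it, and further windows of Hspd1 and Dnaja1 did not either.

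Array medians lay between 5.56 and 5.70 on the log2 scale. Of 12 hepatocyte markers 9 were measured, and their mean level was between 12.7 and 13.3 in every group. In 2 livers, both from 5-week females, the mean of the 3 measured skeletal muscle markers (Ckm, Mylpf and Actn3) was 10.34 and 9.71, whereas no other array exceeded 5.92. On 8 arrays the X-linked gene Eif2s3x was nearer the other sex, and these arrays were kept under their labels. The array names carry 6 batch codes, of which 4 held 99, 138, 110 and 86 arrays. The other 2 codes held 1 female of 12 weeks each, and the batch term leaves those arrays no weight. Ages were spread unevenly over the batches. Batch 1 held 35 females and 36 males of 5 weeks, against 15 and 13 of 12 weeks. Batch 2 held 23 and 20 of 5 weeks, against 43 and 52 of 12 weeks, while batches 3 and 4 were more even.

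The level of a probe set depends on its own binding strength, so levels give no order between genes. Of the 57 members, 38 had a mean above that of the median gene, 5.80 on the log2 scale. Hspd1, the HSP60 subunit, had a mean of 12.77, and Hspa8, the constitutive cytosolic HSP70, had 11.29. The means of Hspb7, Hspa12a and Dnajc5g were 3.84, 3.85 and 3.91. Hspa1a had 4.27 and the mitochondrial HSP70 gene Hspa9 had 5.56, below the median gene, so differences in these 2 genes were read from dim probe sets. Hspa1a also has a near-identical copy, Hspa1b, whose transcripts its probes could share.

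Members differed widely in how far mice of 1 group varied. The SD within groups was 0.547 for Hsph1, above that of 99.6% of genes, 0.501 for the small heat shock protein gene Hspb6 and 0.494 for Hspa13, a microsomal HSP70. At the other end the SD of Hspd1 was 0.0798, a value that only 0.448% of genes undercut. The median over members was 0.187 and over all genes 0.175, so the family as a whole varied about as much as the liver transcriptome. Within each group the mouse at the 90th percentile of Hsph1 had between 2.38 and 2.95 times the level of the mouse at the 10th percentile.

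Age was the comparison in which the largest differences of the family appeared. From 5 to 12 weeks, 26 of the 57 members passed the test in females, against 46.2% of all genes. Of these 16 were higher, against 22.1% of all genes, and 10 lower, against 24.2%. In males 27 passed, against 46.3% of all genes. Of these 18 were higher, against 22.3%, and 9 lower, against 24.0%. The share of members that differed was thus close to that of all genes. Most members lie above the median level, where calls were more frequent. Among genes above that level 22 of 38 members passed in females, against 64.1%, and 23 in males, against 64.2%. The median absolute difference of members was 0.055 in females and 0.049 in males on the log2 scale, against 0.050 and 0.053 over all genes. Passing in both sexes were 17 members, or 29.8%, against 33.2% of all genes. Of these 13 were higher at 12 weeks, or 22.8% of members against 15.5% of all genes, and 4 lower, or 7.02% against 17.2%. Differences of 0.2 or more were found for 7 members in females and 6 in males, 12.3% and 10.5% against 11.1% and 11.7% of all genes. In whole liver, fewer cells of a type and less RNA per cell cannot be told apart.

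**Figure D1:**
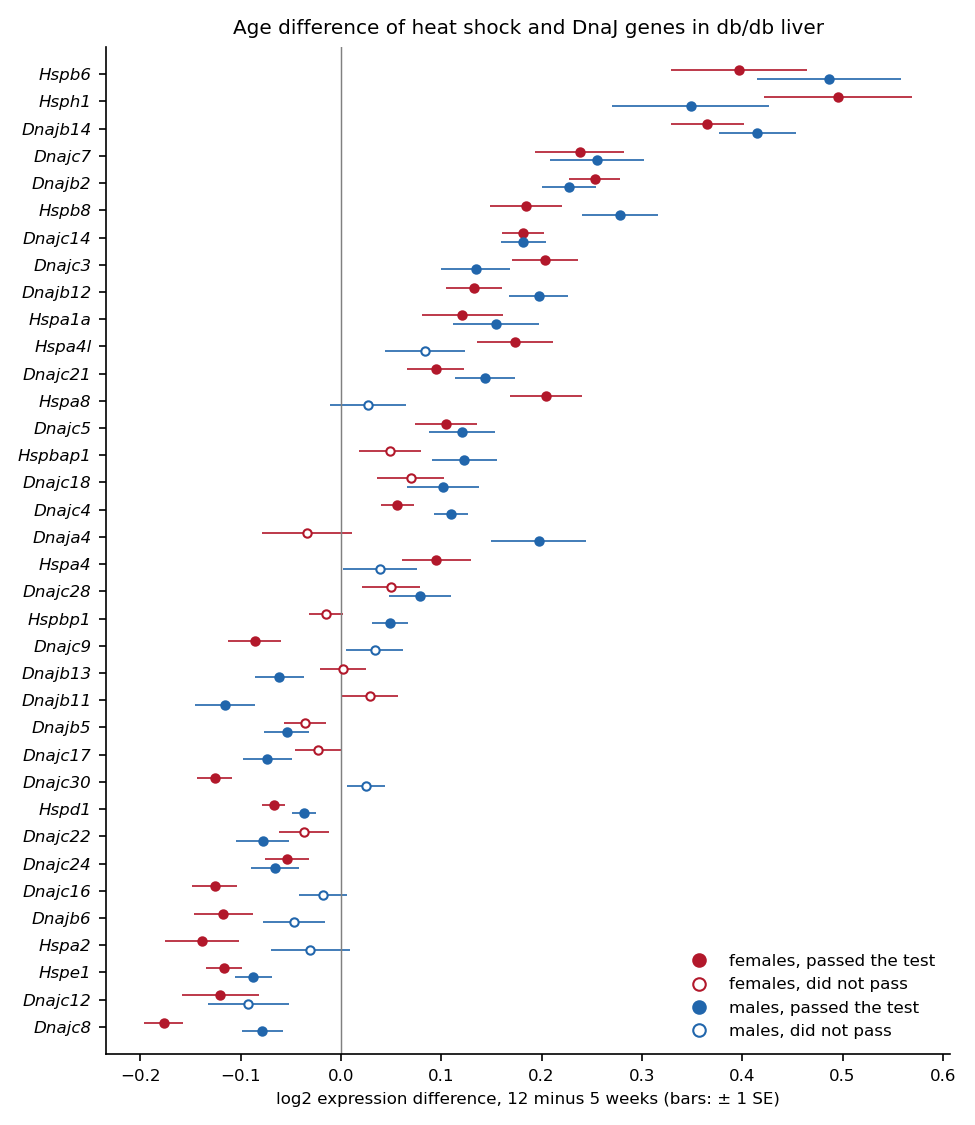
Log2 expression difference between 12 and 5 weeks for the 36 members that passed the test in at least 1 sex, in females (red) and males (blue), with bars of 1 SE and open circles where the test was not passed. Hspb6, Hsph1 and Dnajb14 lie farthest to the right in both sexes, and Hspa8 passed the test in females and not in males.

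Of the HSP70 and HSP110 proteins, Hsph1 differed most with age. Its log2 level ran from 5.41 through a median of 7.51 to 9.02 in 5-week females and from 6.79 through 8.15 to 9.10 in 12-week females. In males it ran from 6.74 through 7.58 to 9.08 at 5 weeks and from 6.36 through 8.08 to 9.43 at 12 weeks. The medians were higher at 12 weeks in both sexes, while the ranges overlapped almost fully. The fitted difference was 0.50 ± 0.074 (SE) in females, a 1.41-fold rise with an adjusted p of 4.61e-10. In males it was 0.35 ± 0.078, a 1.27-fold rise with an adjusted p of 4.63e-05. The size varied with the batch, between 0.10 and 0.90 for females and between 0.17 and 0.54 for males, with 1 direction throughout.

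Hspa8 folds newly made proteins in unstressed cells. In females its log2 level ran from 10.48 through a median of 11.19 to 11.99 at 5 weeks and from 10.51 through 11.40 to 12.02 at 12 weeks. In males the values were 10.73, 11.30 and 12.09 at 5 weeks and 10.79, 11.33 and 12.27 at 12 weeks. The 5-week females had the lowest median of the 4 groups, and all groups overlapped. The age difference was 0.20 ± 0.036 in females (adjusted p = 1.15e-07). In males it was 0.027, with a 95% interval from -0.047 to 0.10 (adjusted p = 0.595). The difference between these age effects was -0.18 ± 0.051 (adjusted p = 0.0114). It was not called without batch 1 (-0.17, adjusted p = 0.0713) or without batch 4 (-0.11, adjusted p = 0.293), and within batches 1 to 4 it was -0.29, -0.14, 0.045 and -0.46.

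**Figure D2:**
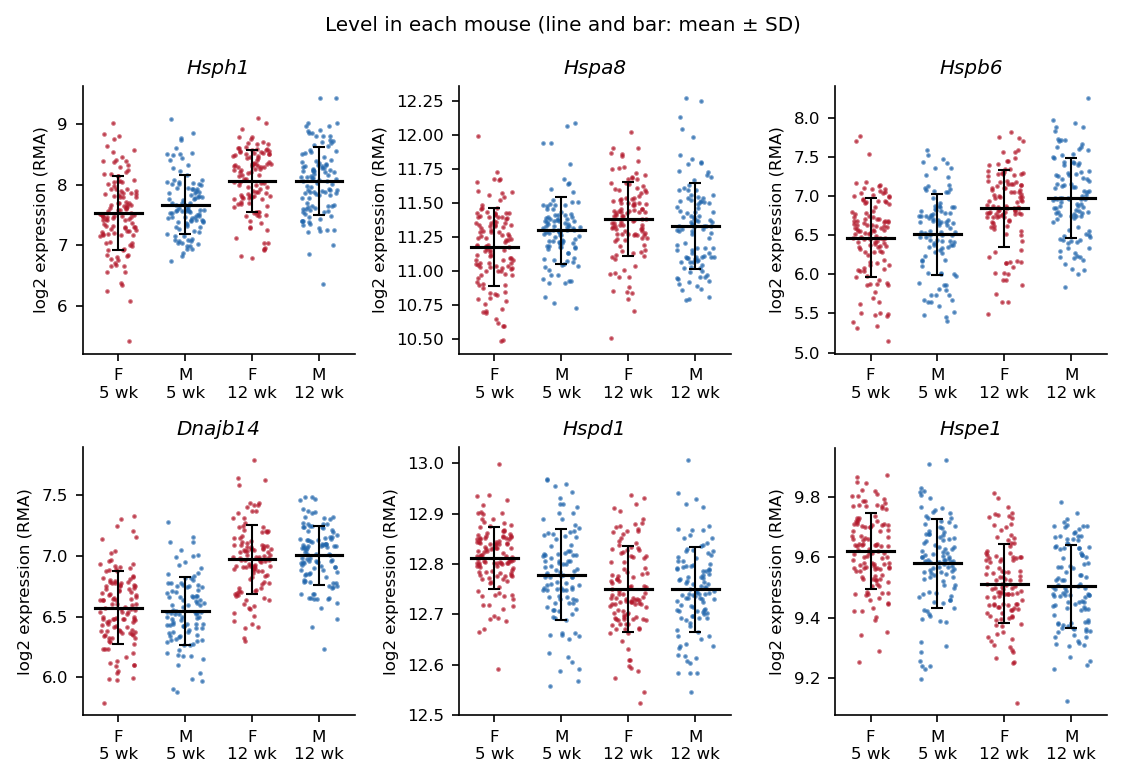
Log2 expression of 6 members in each mouse, by sex (F, M) and age, with a line at the mean and a bar of 1 SD. The groups overlap in every panel; Hsph1, Hspb6 and Dnajb14 lie higher at 12 weeks in both sexes, while Hspd1 and Hspe1 lie lower.

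The other HSP70 and HSP110 genes differed less. Hspa4l, a second HSP110 protein, was higher at 12 weeks in females by 0.17 ± 0.038 (adjusted p = 2.39e-05), and its other probe set gave 0.12. Hspa1a was higher by 0.12 ± 0.041 in females (adjusted p = 0.00826) and by 0.15 ± 0.043 in males (adjusted p = 0.00124). The female value was not called with the plate code as covariate (adjusted p = 0.0613) or without batch 1 (adjusted p = 0.0949). Hspa2, known from the testis, was at -0.14 ± 0.037 in females (adjusted p = 0.000721). Hspa9 did not pass the test, with a 95% interval of -0.069 to 0.011 for females and -0.042 to 0.043 for males.

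Both chaperonin subunits were lower at 12 weeks. Hspe1, the HSP10 lid of the chamber, ran from 9.25 through a median of 9.62 to 9.87 in 5-week females and from 9.12 through 9.50 to 9.81 in 12-week females. In males it ran from 9.20 through 9.59 to 9.92 at 5 weeks and from 9.13 through 9.50 to 9.78 at 12 weeks. The 12-week medians were lower and the ranges overlapped. Hspe1 fell by 0.12 in females (-0.12 ± 0.018, adjusted p = 1.24e-09) and by 0.087 in males (-0.087 ± 0.019, adjusted p = 2.27e-05). Hspd1 fell by 0.067 in females (-0.067 ± 0.011, adjusted p = 2.02e-08) and by 0.037 in males (-0.037 ± 0.012, adjusted p = 0.0054). The male value of Hspd1 was -0.026 after subtraction of array medians (adjusted p = 0.0602) and -0.031 without batch 3 (adjusted p = 0.0501).

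Of the 6 small heat shock proteins, Hspb6 and Hspb8 were higher with age in both sexes and the other 4 did not pass the test in either. Hspb6, also called Hsp20 and abundant in muscle, ran from 5.14 through a median of 6.54 to 7.78 in 5-week females and from 5.50 through 6.87 to 7.83 in 12-week females. In males it ran from 5.40 through 6.55 to 7.59 and from 5.84 through 6.97 to 8.26. The older medians were higher, with wide overlap. The females differed by 0.40 ± 0.067 (adjusted p = 5.12e-08) and the males by 0.49 ± 0.072 (adjusted p = 3.27e-10), between 0.33 and 0.58 within batches.

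The 2 livers with muscle markers had the highest Hspb6 of the 5-week females, 7.78 and 7.71, against at most 7.54 in the others. Without them the female age difference of Hspb6 was 0.42 (adjusted p = 8.10e-09). Hspb8, a partner of Bag3 in the autophagy of misfolded proteins, ran from 8.99 through a median of 9.82 to 10.99 in 5-week females and from 9.31 through 9.95 to 10.64 in 12-week females. In males it ran from 8.81 through 9.65 to 10.81 and from 9.15 through 9.89 to 10.56, so the 5-week males had the lowest median and all groups overlapped. Hspb8 was higher at 12 weeks by 0.18 ± 0.036 in females (adjusted p = 1.84e-06) and by 0.28 ± 0.038 in males (adjusted p = 9.88e-12).

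Among the class B cochaperones, Dnajb14 and Dnajb2 had the clearest separation by age. Dnajb14, a J protein of the endoplasmic reticulum membrane, ran from 5.79 through a median of 6.56 to 7.33 in 5-week females and from 6.30 through 6.98 to 7.79 in 12-week females. In males it ran from 5.88 through 6.53 to 7.28 and from 6.23 through 7.02 to 7.49. The ranges overlapped, with older medians higher in both sexes. Older females were higher by 0.37 ± 0.036 (adjusted p = 3.36e-20) and older males by 0.42 ± 0.039 (adjusted p = 1.23e-22). A second probe set of the gene gave 0.39 and 0.44.

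Dnajb2, which carries ubiquitin-tagged clients to the proteasome, had medians of 8.94 and 8.93 in females and males at 5 weeks and of 9.19 in both sexes at 12 weeks. It rose by 0.25 ± 0.025 in females (adjusted p = 4.82e-20) and by 0.23 ± 0.027 in males (adjusted p = 5.56e-15). Dnajb12, another J protein of the endoplasmic reticulum membrane, rose by 0.13 ± 0.028 in females (adjusted p = 1.25e-05) and by 0.20 ± 0.030 in males (adjusted p = 6.8e-10). Dnajb1, the main heat-inducible class B protein, did not pass the test, with a 95% interval of -0.045 to 0.054 for females and -0.084 to 0.021 for males. Of class A, Dnaja1 did not pass either, with a 95% interval of -0.055 to 0.078 for females and -0.061 to 0.080 for males.

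The 23 class C proteins share little beyond the J domain, and 12 of them passed in each sex, or 52.2%, against 46.2% and 46.3% of all genes. In females 6 of the 12 were higher, and in males 8. Dnajc7, which binds both HSP70 and HSP90, rose by 0.24 ± 0.044 in females (adjusted p = 6.25e-07) and by 0.25 ± 0.047 in males (adjusted p = 5.11e-07). Dnajc3, an inhibitor of the stress kinase PERK, rose by 0.20 ± 0.033 in females (adjusted p = 8.51e-09) and by 0.13 ± 0.035 in males (adjusted p = 0.000475). Dnajc14 rose by 0.18 in both sexes. Dnajc8, a splicing-associated protein, fell by 0.18 in females (-0.18 ± 0.019, adjusted p = 3.86e-17) and by 0.078 in males (-0.078 ± 0.020, adjusted p = 0.000545). Of the 26 members called in females 24 had the same direction in all 4 larger batches, and of the 27 called in males 22 did.

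The age effect differed between the sexes for 7 members, or 12.3%, against 8.56% of all genes. Dnajc30, a mitochondrial J protein, ran from 9.52 through a median of 9.85 to 10.17 in 5-week females and from 9.33 through 9.75 to 9.999 in 12-week females. In males it ran from 9.31 through 9.72 to 9.93 and from 9.30 through 9.73 to 10.07. The 5-week females stood above the other 3 groups by their median, within overlapping ranges. The age effect in males minus that in females was 0.15 ± 0.025 (adjusted p = 2.29e-06). It was 0.23 ± 0.064 for Dnaja4 (adjusted p = 0.00808) and -0.14 ± 0.040 for Dnajb11 (adjusted p = 0.0083). The count of 7 was 1 without batch 1, 4 without batch 2 and 3 without batch 4. The share of all genes fell as well, to 4.66%, 5.5% and 5.84%.

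Males and females were then compared at each age. At 5 weeks 13 members passed, against 24.9% of all genes. Of these 4 were higher in males, against 10.5% of all genes, and 9 lower, against 14.4%. At 12 weeks 8 passed, against 18.1% of all genes. Of these 6 were higher in males, against 8.97%, and 2 lower, against 9.08%. The members' shares, 22.8% and 14.0%, were near those of all genes. Among genes above the median level 14 of 38 members passed at 5 weeks, against 37.2%, and 7 at 12 weeks, against 30.2%. Without batch 1, 2, 3 or 4 the count at 12 weeks was 4, against 15.6%, 9.77%, 16% and 13.5% of all genes.

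The members higher in 5-week males were led by Dnajb11 and Dnajc3, both of the endoplasmic reticulum lumen. Dnajb11, a cochaperone of the HSP70 protein BiP, ran from 9.08 through a median of 9.55 to 10.06 in females and from 9.18 through 9.73 to 10.37 in males. The male median was higher and the ranges overlapped. The difference was 0.18 ± 0.028 (adjusted p = 2.55e-08) for Dnajb11 and 0.16 ± 0.033 (adjusted p = 3.89e-05) for Dnajc3. Hspa8 was higher in 5-week males by 0.11 ± 0.036 (adjusted p = 0.0122), but by 0.065 without batch 4 (adjusted p = 0.258).

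Among members lower in 5-week males, Dnajc30 was at -0.15 ± 0.018 (adjusted p = 2.02e-13) and Hspb8 at -0.15 ± 0.036 (adjusted p = 0.000299). Dnajc8 was at -0.13 ± 0.019 (adjusted p = 8.69e-09). Hspd1 was at -0.033 ± 0.011 (adjusted p = 0.0169), and it was not called without batch 1 (adjusted p = 0.130) or batch 4 (adjusted p = 0.0931). All 13 members had the same direction in the 4 larger batches.

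At 12 weeks Hspa13 differed most. It ran from 8.26 through a median of 9.50 to 10.35 in females and from 7.83 through 9.65 to 10.87 in males, whose wider range enclosed that of the females. The difference was 0.20 ± 0.067 (adjusted p = 0.0195), and it was not called without batch 2 (adjusted p = 0.171) or batch 3 (adjusted p = 0.241). Hspa1a was higher in males by 0.13 ± 0.041 (adjusted p = 0.0168), and by 0.090 without batch 3 (adjusted p = 0.172). Dnajc9, a histone cochaperone, was higher in males by 0.096 ± 0.027 (adjusted p = 0.00452).

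Markers of some other liver cells moved with age and sex. For comparison, 24.2% of all genes were lower at 12 weeks in females and 24.0% in males, and 22.1% and 22.3% higher. At 12 weeks 9.08% were lower in males than in females. Of 10 measured macrophage markers, 6 were lower at 12 weeks in females and 9 in males, and at 12 weeks all 10 were lower in males than in females. Their mean level per mouse ran from 8.42 to 9.60 in 5-week females, from 8.33 to 9.19 in 5-week males, from 8.05 to 9.26 in 12-week females and from 7.96 to 9.20 in 12-week males. Of 8 lymphocyte markers 7 were lower at 12 weeks in males and 3 in females. Of 6 neutrophil markers 5 were lower in males and 3 in females, where 1 was higher. The 2 measured adipocyte markers, Fabp4 and Retn, were higher at 12 weeks in both sexes, the direction of Hsph1 and Hspb6. Fabp4 was read from a dim probe set, with a mean of 4.15. The mean level of the 2 markers per mouse ran from 4.75 through a median of 5.10 to 5.64 in 5-week females. In 12-week females it ran from 5.02 through 5.42 to 6.11. The males had 4.78, 5.12 and 5.75 at 5 weeks and 4.52, 5.36 and 5.93 at 12 weeks. The part of these cell type markers in the differences of the chaperone genes was not tested.

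The relation to metabolic traits was read as a slope, the log2 expression change per SD of the log2 trait within sex and age. An SD can thus span a different trait range at each age. The part of this in slope differences between ages was not tested. At 12 weeks the insulin slope passed for 16 members, or 28.1%, against 27.5% of all genes. Of these 6 were positive, against 13.4% of all genes, and 10 negative, against 14.1%. Glucose slopes passed for 12 members, or 21.1%, against 12.9% of all genes. Triglyceride slopes passed for 14, or 24.6%, against 19.6%, and liver fat slopes for 14 against 26.0%. Among genes above the median level, insulin slopes passed for 14 of 38 members, against 43.2% of such genes, and glucose for 12, against 23.8%. There triglyceride slopes passed for 14 members, against 33.7%, and liver fat slopes for 11, against 40.6%. The difference between the slopes at 12 and 5 weeks passed for 6 members on glucose against 6.58% of all genes, for 7 on insulin against 13.2%, for 8 on triglycerides against 16.1% and for 2 on liver fat against 12.6%.

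**Figure D3:**
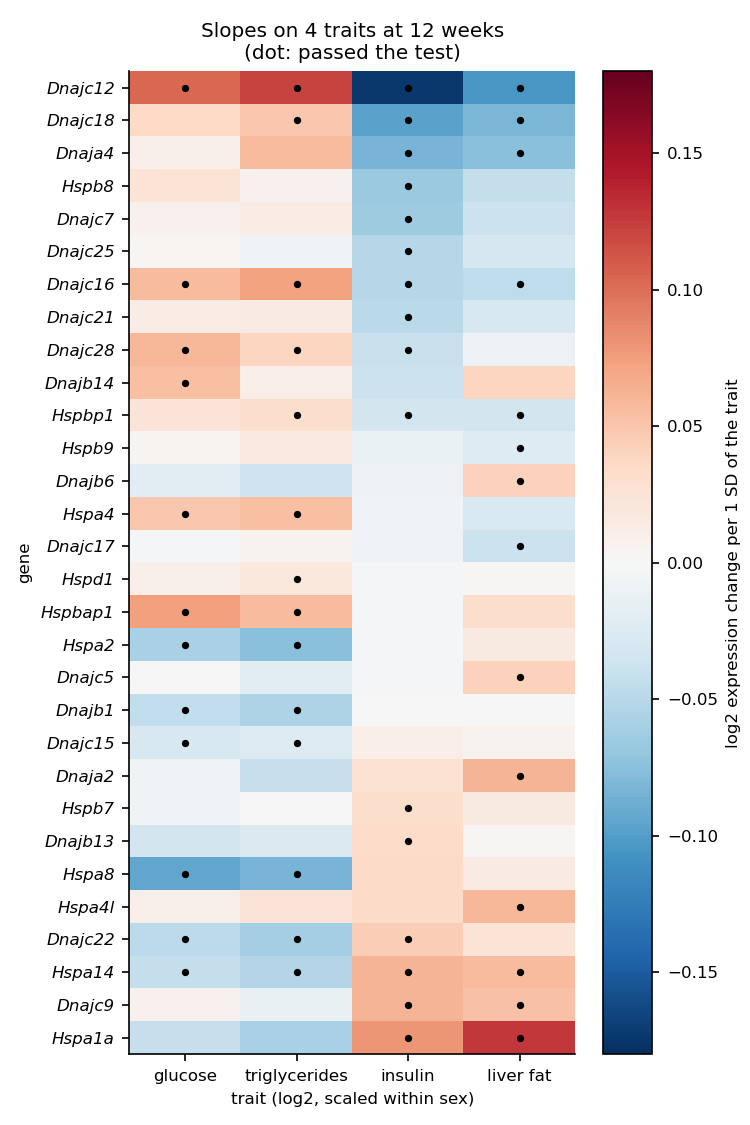
Slopes at 12 weeks of the 30 members that passed the test for at least 1 of 4 traits, in log2 expression per SD of the trait, with a dot where the test was passed. Dnajc12 at the top passed for all 4 traits, with positive slopes on glucose and triglycerides and negative slopes on insulin and liver fat.

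Dnajc12, a cochaperone of the hydroxylases of phenylalanine, tyrosine and tryptophan, had the largest insulin slope of the family. Insulin in 12-week mice ran from 10.5 through a median of 128 to 283 µIU/ml in females and from 7.01 through 61.05 to 214 µIU/ml in males. Dnajc12 ran from 8.17 through 8.74 to 9.57 in these females and from 8.17 through 8.80 to 10.84 in these males. Mice with low insulin tended to have high Dnajc12, and 1 male with 10.84 stood far above the rest. The slope was -0.17 ± 0.019 (adjusted p = 4.58e-15), and it was -0.18 without that male. It was -0.21 ± 0.022 in females and -0.13 ± 0.031 in males fitted apart, and between -0.19 and -0.11 within the 4 larger batches.

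Dnajc12 had slopes of 0.10 ± 0.021 on glucose (adjusted p = 8.11e-05) and 0.12 ± 0.021 on triglycerides (adjusted p = 4.85e-07). Fitted apart, the glucose slope was 0.17 ± 0.025 in females and 0.035 ± 0.033 in males. The liver fat slope of Dnajc12 was -0.10 ± 0.021 (adjusted p = 2.07e-05). The insulin slope at 12 weeks minus that at 5 weeks was -0.15 ± 0.025 (adjusted p = 6.77e-07). At 5 weeks Dnajc12 passed for liver fat alone among the 4 traits, at -0.063 ± 0.016 (adjusted p = 0.00642).

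Other J proteins had insulin slopes of either sign at 12 weeks. Dnajc18, at the endoplasmic reticulum membrane, had -0.097 ± 0.018 (adjusted p = 2.15e-06) and Dnajc16 had -0.051 ± 0.012 (adjusted p = 0.000282). Dnaja4 had -0.084 ± 0.023 (adjusted p = 0.00231), which rested largely on batch 2, with -0.15 there and between -0.025 and 0.022 in the other 3. On the positive side Dnajc9 had 0.062 ± 0.012 (adjusted p = 1.75e-05), Dnajc22 had 0.044 ± 0.013 and Dnajb13 had 0.033 ± 0.012. The small heat shock protein gene Hspb8 had -0.066 ± 0.017 (adjusted p = 0.0011).

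Hspa1a had the largest liver fat slope at 12 weeks, 0.13 ± 0.023 (adjusted p = 2.15e-06). Its level ran from 3.60 through a median of 4.26 to 5.18 in these females and from 3.65 through 4.30 to 6.22 in males, and its overall mean exceeded that of 15.4% of genes, so the probe set is dim. The slope was 0.15 ± 0.025 in females and 0.10 ± 0.039 in males, and between 0.046 and 0.21 within batches. On insulin it was 0.079 ± 0.024 (adjusted p = 0.00655), but -0.094 within batch 1. Hspa14, a ribosome-associated HSP70, had 0.061 ± 0.012 on insulin (adjusted p = 1.64e-05) and 0.057 ± 0.012 on liver fat (adjusted p = 6.72e-05).

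Hspa8 was lower in 12-week mice with high glucose, with a slope of -0.094 ± 0.018 (adjusted p = 3.17e-05). On triglycerides it was -0.084 ± 0.018 (adjusted p = 0.000148), with -0.12 and -0.086 within batches 2 and 3 but -0.0051 and 0.0056 within batches 1 and 4. Dnajc16 was higher with triglycerides by 0.072 ± 0.011 (adjusted p = 5.81e-08). At 12 weeks the slopes of Hsph1 did not pass for any of the 4 traits, and on insulin the interval was -0.083 to 0.063.

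At 5 weeks fewer members followed the traits. Insulin slopes passed for 5 members, or 8.77%, against 2.45% of all genes. All 5 were positive, against 1.02% of all genes. Without the batch term 3 of 57 passed, against 4.54% of all genes, and with plate codes 3, against 2.41%. Triglyceride slopes passed for 12 members against 14.6% of all genes, and 10 of them were positive, against 9.16%. Glucose slopes passed for 4 against 8.12%, and liver fat slopes for 2 against 5.60%. Among genes above the median level, insulin slopes passed for 5 of 38 members, against 6.55% of such genes, and triglyceride slopes for 11, against 27.2%. There glucose slopes passed for 5 members, against 16.6%, and liver fat slopes for 1, against 12.7%. Hsph1 had 0.13 ± 0.037 on insulin (adjusted p = 0.026) and 0.13 ± 0.036 on triglycerides (adjusted p = 0.00568). The second was 0.088 without the log of the trait (adjusted p = 0.102). Dnajb2 had 0.055 on insulin and 0.063 on triglycerides, and Dnaja1 had 0.057 on insulin (adjusted p = 0.0187), which was 0.026 without the batch term (adjusted p = 0.440). For Hsph1 the insulin slopes at the 2 ages did not differ by the test (adjusted p = 0.143).

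Macrophage markers moved with these traits as well, 5 of 10 higher with insulin and 4 of 10 higher with liver fat at 12 weeks. Of all genes 13.4% were higher with insulin, and 26.0% passed for liver fat in either direction. Of 9 hepatocyte markers 7 passed for each of these traits, 2 of them higher. Their part in the slopes was not tested.

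Mice were next compared with each other after group and batch were removed, to see which members varied together. The 9 pairs were Hsph1 with 8 partners and Hspd1 with Hspe1. Hsph1 and Hspa8 had Pearson's r of 0.575 and Spearman's rho of 0.559 over 435 mice (permutation p = 1e-05, the smallest the permutations give; adjusted p = 1.8e-05). Leaving out the 2 mice with the most extreme Hsph1 gave 0.567. It was between 0.445 and 0.641 within groups and between 0.527 and 0.622 within batches. Mice with high Hsph1 for their group thus had high Hspa8.

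**Figure D4:**
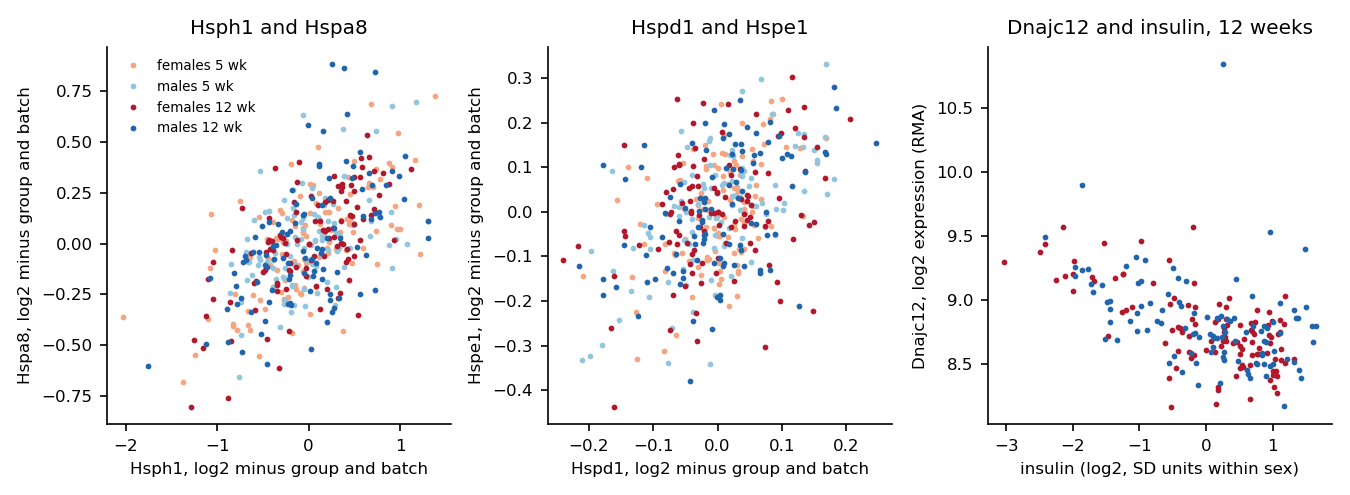
Left and middle, log2 expression of each mouse after removal of group and batch means for Hsph1 against Hspa8 and Hspd1 against Hspe1, coloured by group. Right, Dnajc12 against insulin in 12-week mice, in log2 SD units within sex; Dnajc12 is lower where insulin is higher, and 1 male lies at 10.84.

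Hsph1 and Dnajb11 had r of 0.484 and rho of 0.505 (permutation, adjusted p = 1.8e-05 for both). With Hspe1 r was 0.335, from 0.116 to 0.473 within batches, and with Dnaja1 it was 0.312. With Hspd1 r was 0.198 (adjusted p = 4.5e-05). With Dnajb1 r was 0.196, though -0.012 among 5-week females. With Hspa1a r was 0.118 (adjusted p = 0.0145) while rho was 0.092 (adjusted p = 0.0615), and with Hspa9 r was -0.045 (adjusted p = 0.349). Hspd1 and Hspe1, which share the printed promoter region, had r of 0.442 and rho of 0.410 (adjusted p = 1.8e-05), and r from 0.351 to 0.506 within batches. Hspe1 also had r of 0.448 with Dnajb2. The part of the shared promoter was not tested.

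As a description, the 1596 pairs of members had a median r of 0.0045 and ran from -0.283 to 0.575, the last being Hsph1 with Hspa8. Dnajb2 had r of 0.567 with Hsph1 and Hspa4l had 0.471, while Dnajb11 had 0.558 with Dnajc3. All these values come from the same arrays, so that RNA quality and array effects are shared. Outside the family, the genes most like Hsph1 over the 435 mice were Ahsa2 at 0.774, Stip1 at 0.751, Slc5a3 at 0.692, Chordc1 at 0.677 and Creld2 at 0.622. Ahsa2, Stip1 and Chordc1 encode cochaperones of HSP90, Slc5a3 a transporter of myo-inositol and Creld2 a protein of the endoplasmic reticulum. In no batch and no group was r with Hsph1 below 0.535 for these 5 genes. The genes most like Hspd1 had lower values, from 0.388 for Capn7 to 0.420 for Nckap1.

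Genes that work with the members were counted from lists of known function. Of all genes, the shares to set beside these counts are 22.1% higher and 24.2% lower at 12 weeks in females, 46.2% in all. In males they are 22.3% and 24.0%, 46.3% in all. Tested on their own, genes above the median level passed more often, 64.1% in females and 64.2% in males. Most genes of each list lie above that level, except for the regulators of heat shock factors. Of 19 measured cochaperones of HSP70 and HSP90, 7 were higher and 2 lower at 12 weeks in females, and 8 and 3 in males, so that 47.4% and 57.9% passed. Bag3, the exchange factor that pairs with Hspb8, was higher by 0.47 ± 0.029 in females and 0.43 ± 0.030 in males, and Chordc1 by 0.39 ± 0.044 and 0.18 ± 0.047. Bag1 was higher by 0.18 in females and 0.17 in males. The median over the list was 0.023 in females and 0.020 in males, against 0.0025 and -0.0043 over all genes.

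The cytosolic chaperonin TRiC and its helper prefoldin lay mostly on the other side. Of 13 measured subunits, 8 were lower and 3 higher at 12 weeks in females, and 7 and 2 in males, so that 84.6% and 69.2% passed. Their medians were -0.092 and -0.072, against 0.0025 and -0.0043 over all genes. The prefoldin subunit Vbp1 was at -0.41 in both sexes, and the TRiC subunit Cct7 at -0.17 in females and -0.16 in males. Of 10 mitochondrial chaperones and proteases, 3 were higher and 5 lower in females and 3 and 3 in males. The medians of this list were -0.010 and 0.016. Among them the disaggregase Clpb was higher by 0.23 in females and 0.32 in males, and the protease Htra2 was at -0.14 and -0.12.

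Of 23 genes of the endoplasmic reticulum response, 11 were higher and 2 lower at 12 weeks in females, and 9 and 4 in males, 56.5% in each sex. The list median was 0.068 in females and -0.0019 in males. Herpud1, a component of protein degradation from that compartment, was higher by 0.31 and 0.46. Sdf2l1, which works with BiP and Dnajb11, was at -0.30 and -0.54. Of 16 measured genes known as targets of heat shock factor 1, 9 of them members, 7 were higher and 4 lower in females. In males 5 were higher and 3 lower, so that 68.8% and 50.0% passed. The members among them were already described above. The 7 that are not members included 2 higher and 2 lower in females, and 2 and 1 in males. The collagen chaperone Serpinh1 was at -0.57 ± 0.045 in females and -0.60 ± 0.048 in males, opposite to Hsph1 within the same list. Of 3 measured regulators of heat shock factors, Hsbp1, which binds the factor and dampens it, passed in both sexes, at 0.098 and 0.19.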

How the data were processed

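Liver RNA of 435 mice was hybridised to Affymetrix arrays, 1 per mouse. The deposited values are log2 expression made with RMA, per the submitters' processing notes; neither its version nor the meaning of the batch codes is given in the sources used here. Of 15397 probe sets 13516 had 1 symbol, 162 several and 1719 none. Tests used limma 3.58.1 in R 4.3.3 on 13379 genes, with group and batch code in 1 model; slopes used sex and batch. Benjamini-Hochberg adjustment ran over all genes, with calls at an adjusted p under 0.05, and was checked on simulated data. Correlations used 100000 permutations within groups, two-sided. All members may be named, with full values for called members of the largest differences and for a fixed set of core chaperones; per pathway list, the 3 largest called genes. Members and lists were chosen with earlier results of these data known. Alternatives covered batch, plate code, array centring, probe-set choice, low-level genes, trait scale, each batch left out, the 2 arrays with muscle markers and the mouse farthest from its group. The number of arrays limits the precision. A further probe set, for Dnajc19 and another symbol, was not used.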

Additional observations from a re-analysis of the deposited data

Results flagged for a closer look

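Several members had age effects that differed between the sexes by the interaction test. The difference, males minus females, was 0.23 for Dnaja4, 0.15 for Dnajc30, 0.12 for Dnajc9, 0.11 for Dnajc16 and 0.098 for Dnajc8. It was -0.18 for Hspa8 and -0.14 for Dnajb11. For Dnaja4 it was not called without batches 1, 2 or 4 (adjusted p = 0.0648, 0.0722 and 0.0733, limma), nor for Hspa8 without batches 1 or 4 (adjusted p = 0.0713 and 0.293). The other members named here were not checked singly in this way. Without batches 1, 2 and 4 the test was passed by 1, 4 and 3 members, so calls among them were lost as well.

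Trait slopes also differed between 12 and 5 weeks for some members by the same kind of test. Each slope is per SD of the trait at its own age, and trait spreads changed with age. Before the log, the SD of liver fat was 0.020 in females and 0.022 in males at 5 weeks, against 0.037 and 0.046 at 12 weeks. On glucose the difference, 12 minus 5 weeks, was 0.15 for Hspa13, 0.10 for Dnajc12 and 0.048 for Dnajc16, and -0.097 for Hspa1a, -0.089 for Hspa2 and -0.058 for Dnajb1. Hspa2 was not called with plate codes (adjusted p = 0.0543) or ranked traits (adjusted p = 0.135), nor Hspa13 with ranked traits (adjusted p = 0.0920). With plate codes Hspa1a (adjusted p = 0.0632) and Dnajb1 (adjusted p = 0.132) were not called either, and Dnajb1 was also lost with the unlogged (adjusted p = 0.200) and the ranked trait (adjusted p = 0.321). Without the farthest mouse the values of Hspa1a (adjusted p = 0.216) and Dnajb1 (adjusted p = 0.278) were not called. On insulin the slope difference was -0.15 for Dnajc12, -0.14 for Dnaja4, -0.10 for Dnajc7, -0.095 for Dnajc18 and -0.084 for Dnajc3. It was 0.070 for Dnajc9 and 0.053 for Hspa14.

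On triglycerides the slope difference was 0.13 for Dnajc12 and 0.028 for Hspd1. It was -0.12 for Hspa1a, -0.080 for Dnajc5, -0.070 for Dnajb14, -0.060 for Dnajb1, -0.050 for Dnajc24 and -0.027 for Dnajc15. The value of Dnajb14 was -0.029 with the mean of its probe sets (adjusted p = 0.357), and it was also not called without the batch term (adjusted p = 0.0737), with plate codes (adjusted p = 0.0703), with ranked traits (adjusted p = 0.120) or without the farthest mouse (adjusted p = 0.0866). Dnajb1 was at -0.041 with the unlogged trait (adjusted p = 0.118), and Dnajc24 at -0.041 with plate codes (adjusted p = 0.0693). No slope of Dnajc24 itself passed at either age. On liver fat the difference was -0.10 for Dnajc18 and 0.072 for Hspa14.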

How the results depend on the processing

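None of the 99 named values and none of the tested correlations changed direction under the alternatives run. Other values were not checked for this. Within single batches some named values differed in sign, as given above for Hspa8 and Hspa1a. The sex difference at 12 weeks was called for 4 members instead of 8 without each larger batch in turn. The share of all genes fell as well, from 18.1% to between 9.77% and 16%. The age by sex interaction was called for 1, 4 and 3 instead of 7 without batches 1, 2 and 4. Of all genes 4.66%, 5.5% and 5.84% were called there, instead of 8.56%. Without batch 2 the calls were 1 higher and 3 lower, instead of 5 and 2. Glucose slopes at 5 weeks gave 11 instead of 4 without the batch term, and 2 with plate codes or with ranked traits. Of all genes 15.6% were called without the batch term, 5.05% with plate codes and 6.23% with ranks, instead of 8.12%. The change of the glucose slope with age gave 2 with plate codes and 3 with ranks instead of 6. The shares of all genes were 4.95% and 6.53% there, instead of 6.58%. Insulin slopes at 5 weeks gave 3 instead of 5 without the batch term, against 4.54% of all genes, and 3 with plate codes, against 2.41%. Among the 38 members above the median level, liver fat slopes at 5 weeks and their change with age gave 1 each instead of 2. Fewer genes were tested there, and of these 12.7% and 23.9% were called. The causes of the other shifts were not tested. Without the 2 arrays with muscle markers, an alternative chosen after seeing the data, every count stayed within 1.5 times its value. Without the mouse farthest from its group, also chosen afterwards, 6 of 99 named values lost their call. No paired analysis was possible because the mouse numbers in the labels are not shared between groups. Precision is limited for Hspa1a, Hspa9 and the other dim probe sets.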
